A study of Mus musculus with 2 samples.

Results

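The Rab genes of the adult mouse testis were taken as all gene symbols made of Rab, a number and at most 2 further letters. Of 30052 symbols in the joined matrices, 63 matched, and both matrices listed every one. By the annotation 59 of them are Rab GTPase genes. The other 4 matched by name and not by family: Rab3ip is an exchange factor for Rab8, Rab5if encodes a Rab5-interacting factor, and Rab10os and Rab26os are antisense RNAs. Single-cell RNA sequencing had been done on dissociated testes of adult mice, with 1 wild-type (WT) library and 1 Nsun7 knockout library. Nsun7 belongs to the NOL1/NOP2/SUN family of RNA cytosine methyltransferase-like proteins, and the series title ties it to assembly of the sperm flagellum. The labels give neither the strain, nor the age beyond adult, nor the number of animals behind a library, nor the part of Nsun7 that was deleted.

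Rab GTPases are small proteins that sit on the membranes of a given compartment when bound to GTP and recruit the effectors that tether, move and fuse vesicles. Exchange factors load them with GTP, GTPase activating proteins of the TBC family switch them off, and GDI proteins carry the inactive, prenylated form through the cytosol. In the testis, membrane traffic of this kind builds the acrosome from Golgi vesicles, supplies the growing flagellum, and serves the secretory and phagocytic somatic cells.

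The WT matrix held 220247156 counts in 16376 barcodes and the knockout matrix 210531446 counts in 16837 barcodes, of which 15139 and 13869 passed the cell filter. Barcode names are serial, and 2168 names occur in both matrices. Clustering without the Rab genes and Nsun7 gave 9 classes named from markers, 5 of germ cells and 4 of somatic cells, and a class name stands for cells like that type. All of the 9 to 14 markers of each class had counts in that class in both libraries, except that 12 of the 13 Sertoli markers had counts in the knockout library. Having counts does not set a class apart, as all 12 elongating spermatid markers had counts in all 9 classes. The 14 spermatogonium markers summed to 2257 CPM in spermatogonia and 1650 CPM in early spermatocytes of WT. In the knockout library they summed to 1870 and 2187 CPM, so higher in early spermatocytes. Each other list summed highest in its own class in both libraries. Counts were summed over the cells of a class and divided by the class total, which gives counts per 1000000 (CPM). They are taken as 1 count per molecule, so levels of different genes were compared without dividing by transcript length. Nsun7 itself stood at 174 CPM over the kept WT cells and at 40.9 CPM over those of the knockout. As each genotype is 1 library, no test was made and nothing below was checked in a replicate. Each 95% interval covers counting error only. Where 2 values stand together, the WT value comes first.

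A pair of Rab genes that was highest in elongating spermatids, the latest germ cell class, is described first. Rab28, which is linked to the cilium of photoreceptors, lies on chromosome 5, 41624976 to 41708157, minus strand (GRCm38). Along spermatogonia, early spermatocytes, late spermatocytes, round spermatids and elongating spermatids it was at 87.4, 136, 97.3, 70.7 and 199 CPM (WT) and 114, 139, 90.3, 72 and 189 CPM (knockout). Among germ cells it was thus lowest in round spermatids and highest in elongating spermatids, in both libraries. Rab22a, a Rab of early and recycling endosomes, lies on chromosome 2, 173659760 to 173707343, plus strand. Over the same classes it was at 79.9, 101, 69.6, 46.5 and 118 CPM (WT) and 83.2, 104, 76.2, 55.2 and 123 CPM (knockout), with the same low point in round spermatids and the same high point in elongating spermatids. That high point of Rab22a depends on the mix of clusters. With the elongating clusters that both libraries hold weighted alike, Rab22a was at 94.1 and 89.1 CPM, below its early spermatocyte level. Rab28 was then at 180.6 and 176 CPM, still its highest germ cell level. By the class sums, Rab28 and Rab22a were 2 of 40 measured GTPase genes (5%) with their highest level in elongating spermatids in both libraries, against 7.01% of 12788 genes. A gene counts as measured in a class where its mean over both libraries is at least 20 CPM.

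The RefSeq promoter windows of Rab28 and Rab22a are shown because the 2 genes shared this course, and those of Rab6a and Rab6b because Rab6a had its lowest germ cell level in elongating spermatids, where its paralogue Rab6b was above its level in late spermatocytes and round spermatids. Each window runs from 250 bases before to 50 bases after the annotated start on GRCm38.p6, 5′ to 3′ on the strand of the gene. Rab28 is at chr5:41708130-41708429 (minus strand), Rab22a at chr2:173659595-173659894 (plus), Rab6a at chr7:100607336-100607635 (plus) and Rab6b at chr9:103111824-103112123 (plus). Capitals mark CAAGATGGCGGC, the longest run of letters that the Rab28 and Rab22a windows share on the strand of the gene, or its reverse complement GCCGCCATCTTG; it holds the letters that the factor YY1 is known to bind.
Rab28: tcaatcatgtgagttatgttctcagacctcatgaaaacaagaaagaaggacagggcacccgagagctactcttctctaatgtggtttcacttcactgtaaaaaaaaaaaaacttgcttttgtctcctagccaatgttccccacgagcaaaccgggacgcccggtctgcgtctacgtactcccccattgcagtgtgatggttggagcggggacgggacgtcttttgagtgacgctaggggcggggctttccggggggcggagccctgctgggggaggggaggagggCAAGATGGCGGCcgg
Rab22a: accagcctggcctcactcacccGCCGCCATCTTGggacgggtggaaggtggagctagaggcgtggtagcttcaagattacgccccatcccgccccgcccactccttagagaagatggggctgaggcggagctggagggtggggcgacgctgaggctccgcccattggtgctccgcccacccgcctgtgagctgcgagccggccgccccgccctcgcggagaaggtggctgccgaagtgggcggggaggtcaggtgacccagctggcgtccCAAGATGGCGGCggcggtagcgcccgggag
Rab6a: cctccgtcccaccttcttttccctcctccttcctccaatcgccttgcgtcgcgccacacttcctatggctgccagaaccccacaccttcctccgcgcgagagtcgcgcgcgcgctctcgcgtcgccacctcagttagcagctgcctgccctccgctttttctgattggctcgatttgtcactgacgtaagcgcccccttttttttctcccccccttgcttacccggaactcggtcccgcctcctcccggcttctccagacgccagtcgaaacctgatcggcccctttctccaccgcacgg
Rab6b: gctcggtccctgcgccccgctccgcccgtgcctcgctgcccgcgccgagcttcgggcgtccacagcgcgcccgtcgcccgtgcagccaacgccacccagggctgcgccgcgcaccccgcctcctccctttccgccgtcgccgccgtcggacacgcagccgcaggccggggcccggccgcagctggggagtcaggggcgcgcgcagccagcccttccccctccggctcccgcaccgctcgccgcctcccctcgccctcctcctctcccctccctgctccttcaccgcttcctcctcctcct
The run of 12 letters lies after the start in Rab28 and once in each orientation in Rab22a. It was chosen after the sequences had been read. Over 32851 windows of the same length it occurred in 0.356%. Among 60 windows of the 48 Rab GTPase genes that had one, it occurred in 2, those of Rab28 and Rab22a. The run was taken from these 2 windows, so that count was fixed beforehand and shows no excess among Rab genes. The cyclic AMP response element TGACGTCA, through which the spermatid activator CREM works, occurred in 1.79% of all windows and in 2 of the 60 Rab windows, those of Rab25 and Rab5a. Its shorter form TGACG (reverse CGTCA), which overlaps it, occurred in 20.8% of all windows and in 26 of the 60 Rab windows, those of Rab28 and Rab6a among them. Such matches describe letters and say nothing of binding.

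Of the 59 GTPase genes, 40 were measured in at least 1 class. The 3 most abundant of each class came from a small set. Rab11a, Rab14 and Rab6a led in spermatogonia and in early spermatocytes, and Rab11a, Rab2a and Rab6a led in late spermatocytes. The border between late spermatocytes and round spermatids depends on the clustering. Cluster 4 of the late spermatocytes (1221 and 398 cells) held the round spermatid marker Acrv1 at 336 and 307 CPM. In a finer clustering (Leiden resolution 2) a cluster with many of the same leading genes was named round spermatid. In round spermatids the leaders were Rab11a, Rab2a and Rab28, and in elongating spermatids Rab28, Rab22a and Rab5c. Summed over the 59 genes, Rab transcripts made up 2623 and 2295 CPM in spermatogonia, 3066 and 3325 CPM in early spermatocytes and 1618 and 1534 CPM in late spermatocytes. The sum was 906 and 908 CPM in round spermatids and 654 and 587 CPM in elongating spermatids, the lowest of the 9 classes. Somatic sums were 1955 and 1285 CPM in Sertoli-like, 2963 and 2829 CPM in Leydig-like, 2354 and 1929 CPM in macrophage-like and 2615 and 2361 CPM in stroma-like cells. In elongating spermatids 12 marker transcripts, among them protamines and transition proteins, took 220409 and 242569 CPM of the total, and a CPM is a share of that total.

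Between germ cell classes of WT, 24 of 32 GTPase genes measured there (75%) differed at least 4 times, on CPM with a prior of 5 added, and the same 24 did in the knockout library. Over all genes 84.3% did in WT and 82.5% in both libraries. With 32 genes and no test, the Rab share is not read as different from these. The class of highest level was the same in both libraries for 33 of 40 genes (82.5%), against 85.3% of all genes. A somatic class held the highest level of 20 of the 40 (50%) in both libraries, against 27.5% of genes. By class, 7 were highest in early spermatocytes (17.2% of genes), 5 in late spermatocytes (17.3%), 2 in spermatogonia (7.12%) and none in round spermatids (12.4%). Of the others, 6 were highest in macrophage-like cells (6.3%), 5 in Leydig-like cells (9.25%), 3 in Sertoli-like cells (1.83%) and 3 in stroma-like cells (6.88%). These shares rest on 40 genes that passed the minimum level and describe these 2 libraries.

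**Figure D1:**
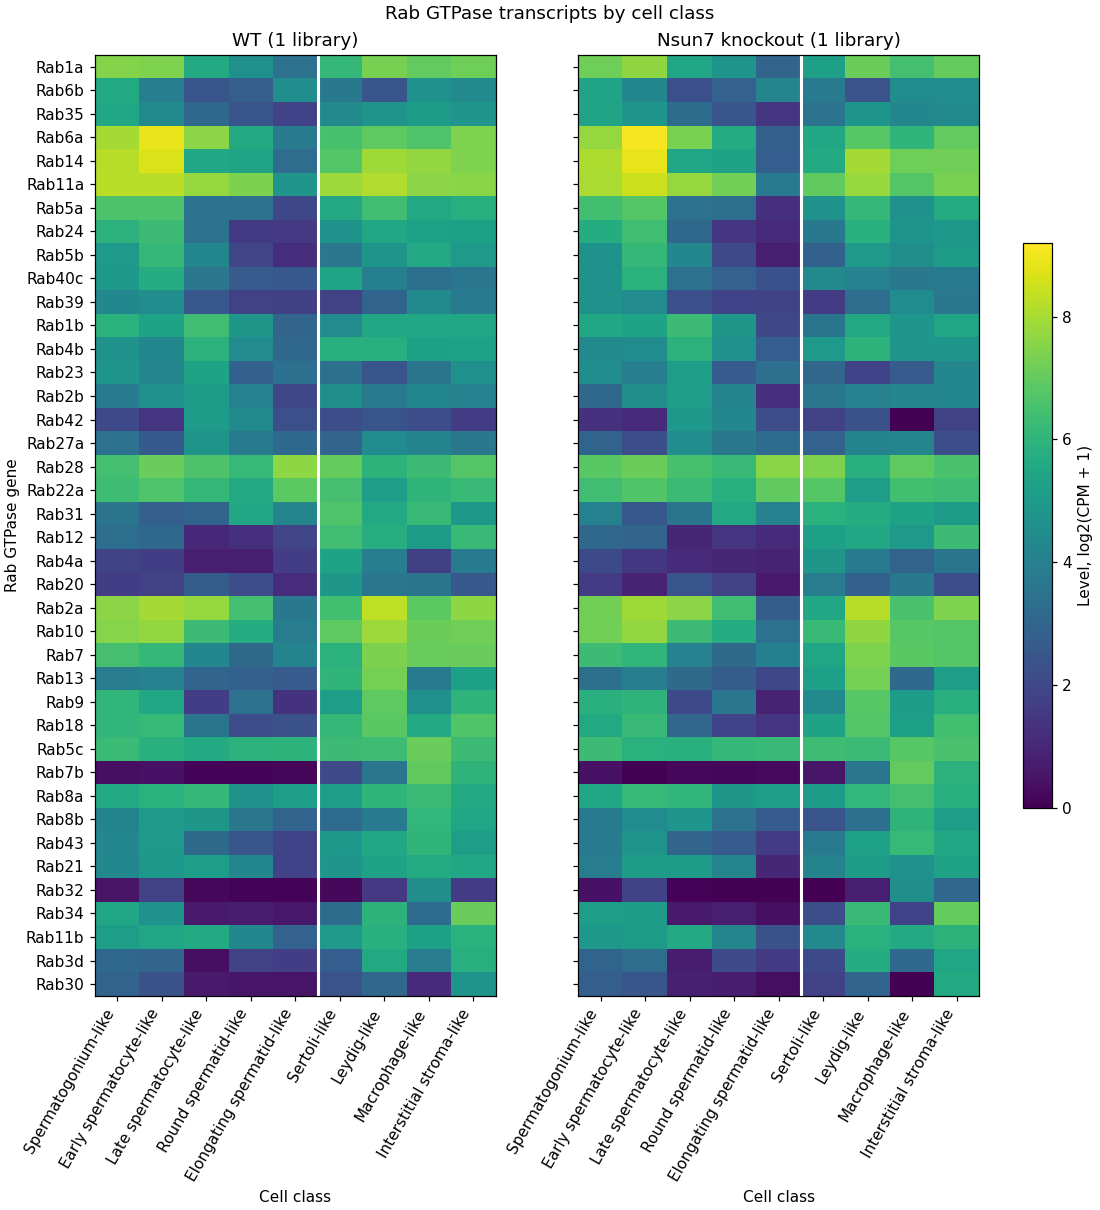
Level of the 40 measured Rab GTPase genes, as log2(CPM + 1), by cell class (columns, 5 germ cell classes left of the white line and 4 somatic ones right of it) in the WT and the knockout library, each 1 library. Genes are ordered by their highest class in WT. Rab6a, Rab14 and Rab11a are brightest in early spermatocytes, and Rab28 and Rab22a are brightest in elongating spermatids in both panels.

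Rabs of the endoplasmic reticulum and the Golgi are taken first. Rab6a, which acts in traffic within and from the Golgi, was at 251, 467, 193, 48.7 and 12.7 CPM (WT) and 215, 542, 163, 49.2 and 6.29 CPM (knockout) along the 5 germ cell classes. Its peak in early spermatocytes was the highest level of any Rab in any class, in each library. Rab6b, its paralogue, was at 47.1, 14.2, 4.23, 5.85 and 22 CPM (WT) and 40.6, 18.4, 3.70, 6.42 and 17.1 CPM (knockout). It was high at both ends of the series, in spermatogonia and in elongating spermatids, and low between. Of the counts of both paralogues, Rab6b held 2.95% and 3.28% in early spermatocytes and 2.15% and 2.22% in late spermatocytes. It held 10.7% and 11.6% in round spermatids and 63.3% (interval 61.4% to 65.2%) in WT and 73.1% (interval 71.6% to 74.6%) in the knockout library in elongating spermatids. Free RNA, estimated from 4 Leydig genes that stood at 7.08% and 5.60% of their library level in elongating spermatids, came to 8.18 and 2.37 CPM for Rab6a there and 0.925 and 0.847 CPM for Rab6b. With free RNA subtracted the Rab6b share was 82.2% in WT and 80.6% in the knockout library.

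Rab1a and Rab1b both act between the endoplasmic reticulum and the Golgi. Rab1a was at 180.5, 171, 48, 23.6 and 10.2 CPM (WT) and 142, 204, 41.8, 26 and 7.09 CPM (knockout), and Rab1b at 57.1, 38.9, 82.8, 28.3 and 7.02 CPM (WT) and 43.6, 39.8, 77.4, 28 and 2.96 CPM (knockout). Rab1a was thus highest in the 2 earliest classes and Rab1b in late spermatocytes. The share of Rab1b in the pair went from 18.6% and 16.3% in early spermatocytes to 63.3% and 64.9% in late spermatocytes and stood at 54.5% and 51.8% in round spermatids. In elongating spermatids it was 40.8% (interval 38% to 43.6%) in WT and 29.5% (interval 27.2% to 31.9%) in the knockout library, where both genes were near or under 10 CPM. With free RNA subtracted the Rab1b share there was 36.5% and 27.9%.

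Rab2a, a Golgi Rab, was at 194, 250.1, 214, 86.1 and 11.9 CPM (WT) and 151, 234, 192, 81.2 and 5.64 CPM (knockout), and its highest level of all was in Leydig-like cells at 321 and 293 CPM. The paralogue Rab2b was lower throughout and peaked in late spermatocytes at 31.8 and 34.7 CPM, with 2.90 and 1.44 CPM in elongating spermatids. Rab18, found on the endoplasmic reticulum and on lipid droplets, was at 71 and 74.2 CPM in early spermatocytes and 3.50 and 2.64 CPM in round spermatids, and was highest in Leydig-like cells at 115 and 105 CPM. Rab43, a Golgi Rab, was at 30.7 and 25.9 CPM in early spermatocytes and 2.62 and 2.05 CPM in elongating spermatids, and was highest in macrophage-like cells at 64.3 and 70.8 CPM. Rab30, also of the Golgi, was under the minimum in every germ cell class, at 6.63 and 5.85 CPM in spermatogonia.

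**Figure D2:**
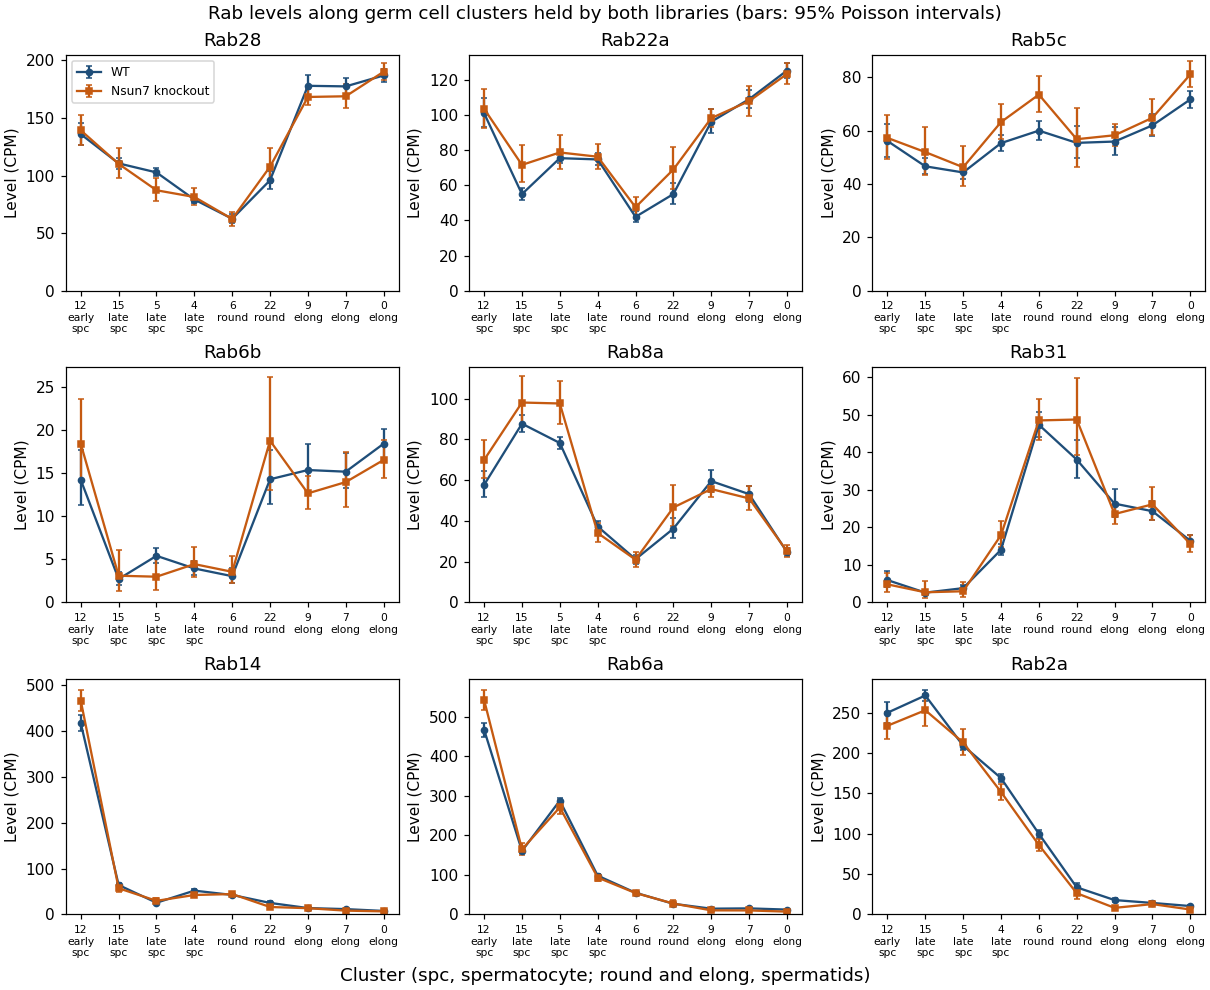
Level (CPM) of 9 Rab genes along 9 clusters held by both libraries, ordered by eye from early spermatocytes to elongating spermatids on the markers Piwil1, Ccna1, Acrv1, Hils1 and Tnp1; circles are WT, squares the knockout library, and bars 95% Poisson intervals. Rab28 and Rab22a have their lowest point in round spermatid cluster 6 and are highest at the right end, while Rab6a, Rab14 and Rab2a end at their lowest levels. Elongating cluster 16, also held by both libraries, is not plotted.

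Finer steps showed in clusters that both libraries hold. The order was set by eye on stage markers and is not a measured time. Rab28 was at 136 and 139 CPM in the early spermatocyte cluster (12), 62.4 and 62.3 CPM in the Acrv1-high round spermatid cluster (6) and 95.9 and 108 CPM in the later one (22). It was then at 178 and 168 CPM and 187 and 190.2 CPM in the Hils1-high (9) and Tnp1-high (0) elongating clusters. A further pair of clusters with little Tnp1 and high Prm2, cluster 3 mainly of WT cells and cluster 24 mainly of knockout cells, held Rab28 at 259 CPM and 245 CPM. These were above its level in any cluster plotted. Rab6b had a similar course, with 3.05 and 3.55 CPM in cluster 6, 18.4 and 16.5 CPM in cluster 0, 35.6 CPM in cluster 3 and 34.4 CPM in cluster 24. Rab22a was at 42.1 and 47.6 CPM in cluster 6, 126 and 124 CPM in cluster 0, 149 CPM in cluster 3 and 130.5 CPM in cluster 24. Elongating cluster 16 (969 and 878 cells) also had little Tnp1, at 2028 and 3713 CPM, and high Prm2, at 141275 and 113165 CPM. Both libraries hold it, but it was not plotted, so the course of these genes in its cells is not described here.

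The Rab5 paralogues drive fusion of early endosomes. Rab5a was at 97.1, 97.9, 10.5, 10.1 and 2.97 CPM (WT) and 83.4, 106, 10.1, 9.06 and 1.37 CPM (knockout), and Rab5b at 29.4, 68.1, 17.9, 2.81 and 1.29 CPM (WT) and 25.5, 69.6, 17.9, 3.08 and 0.707 CPM (knockout). Both were highest in early spermatocytes and lowest in elongating spermatids. Rab5c was at 75.6, 56.1, 48.5, 58.8 and 60.7 CPM (WT) and 77.7, 57.3, 56.1, 69.1 and 72.1 CPM (knockout), within a narrow range in all 5 germ cell classes. Of all Rab5 counts, Rab5c held 25.3% and 24.6% in early spermatocytes, 63.1% and 66.7% in late spermatocytes, 82% and 85% in round spermatids and 93.4% (interval 92.7% to 94.1%) in WT and 97.2% (interval 96.9% to 97.5%) in the knockout library in elongating spermatids. With free RNA subtracted the Rab5c share in elongating spermatids was 96.5% and 98.4%. The share of Rab5a over the same span went from 44.1% and 45.4% to 4.57% and 1.84%. Rab5c was highest in macrophage-like cells, at 137 and 110.2 CPM.

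**Figure D3:**
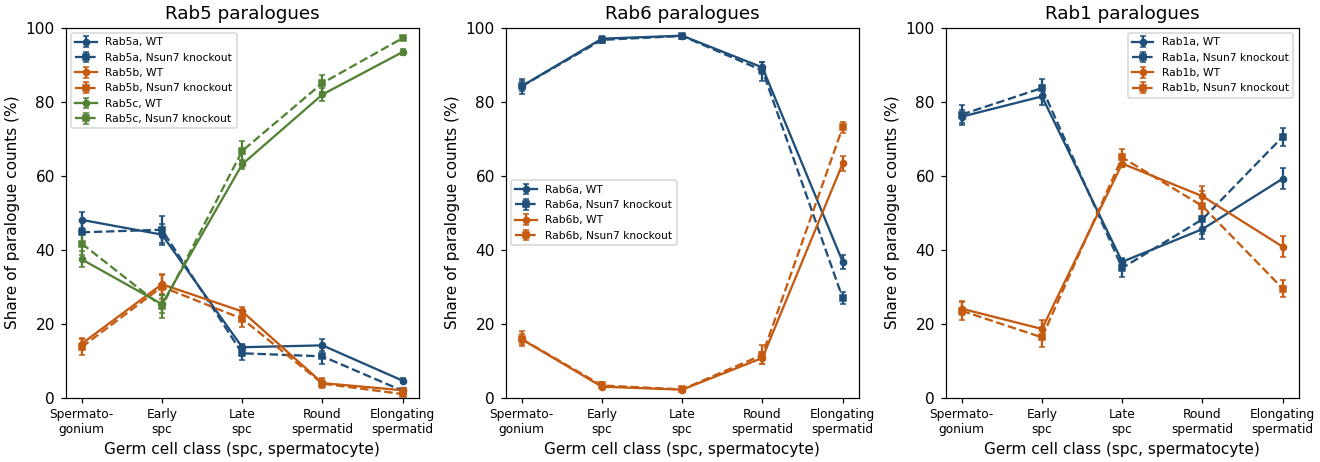
Share (%) that each paralogue holds of the summed counts of Rab5 (Rab5a, Rab5b, Rab5c), Rab6 (Rab6a, Rab6b) and Rab1 (Rab1a, Rab1b) in the 5 germ cell classes; solid lines are WT, dashed lines the knockout library, and bars exact 95% binomial intervals. Rab5c holds 93.4% and 97.2%, and Rab6b 63.3% and 73.1%, of their counts in elongating spermatids, before free RNA is subtracted.

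Rab11a, which controls slow recycling of membrane to the cell surface, was at 302, 302, 214, 165 and 26.5 CPM (WT) and 261, 358, 214, 149.9 and 13.2 CPM (knockout). It was among the 3 most abundant Rabs of WT in every class except elongating spermatids. Rab11b was lower, with 48.6 and 48.5 CPM in late spermatocytes, 6.37 and 3.84 CPM in elongating spermatids and its highest level in stroma-like cells at 57.1 and 60 CPM. Rab14, which works between the Golgi and endosomes, was at 295, 418, 44.7, 40 and 8.81 CPM (WT) and 265, 467, 41, 38.9 and 5.79 CPM (knockout). Most of that span lay between early spermatocytes of WT, with Rab14 at 418 CPM (interval 401 to 435), and late spermatocytes, with 44.7 CPM (interval 43.2 to 46.2).

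Among the other recycling Rabs, Rab4b peaked in late spermatocytes of the germ line at 58.5 and 59.8 CPM and was at 7.53 and 5.73 CPM in elongating spermatids. Its paralogue Rab4a was under 20 CPM in all germ cell classes and highest in Sertoli-like cells at 39.6 and 28.3 CPM. Rab35, a Rab of the plasma membrane, was highest in spermatogonia at 44.5 and 40.4 CPM and at 2.64 and 1.76 CPM in elongating spermatids. Rab21, which carries integrins, was at 34.7 and 32.1 CPM in late spermatocytes and 2.57 and 0.993 CPM in elongating spermatids.

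Rab31, which acts between the trans-Golgi network and endosomes, followed another course. It was at 10.6, 5.96, 6.84, 44.6 and 17.2 CPM (WT) and 15.7, 4.82, 10.6, 45.8 and 15.8 CPM (knockout), so its germ cell maximum lay in round spermatids. Within that class it was at 47.4 and 48.5 CPM in cluster 6. Its level in Sertoli-like cells was higher still, at 101 and 57.9 CPM. Rab31 was the only one of the 32 genes measured in germ cells whose germ cell maximum was in round spermatids, in both libraries.

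Rab7, which directs fusion with lysosomes, was at 88.8, 68.9, 17.9, 8.13 and 16.5 CPM (WT) and 78.5, 65.1, 16, 8.01 and 14.5 CPM (knockout), and was highest in Leydig-like cells at 166 and 168 CPM. Rab9, which returns receptors from late endosomes to the Golgi, is an X-linked gene (chromosome X, 166457253 to 166479867, minus strand), and the X chromosome is silenced during meiosis. It was at 65.6, 44.2, 2.21, 9.86 and 1.57 CPM (WT) and 56.4, 62.1, 3.11, 11.3 and 0.884 CPM (knockout). Late spermatocytes held Rab9 at 2.21 CPM (interval 1.89 to 2.56) in WT and at 3.11 CPM (interval 2.24 to 4.21) in the knockout library, with a higher level in round spermatids. The part of X silencing in this course was not tested. Rab24, linked to autophagy, was at 79.1 and 82.9 CPM in early spermatocytes and 1.85 and 1.14 CPM in elongating spermatids. Rab39, also of late endosomes, was at 21.9 and 20.5 CPM in early spermatocytes and 2.38 and 2.71 CPM in elongating spermatids.

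Rabs of secretion and of cilia follow. Rab8a, which works in exocytosis and in cilium growth, was at 47.5, 57.7, 68.1, 25.4 and 34.1 CPM (WT) and 42.3, 69.9, 66.1, 28.2 and 33.5 CPM (knockout). In clusters it was at 87.7 and 98.1 CPM in late spermatocyte cluster 15, 21.2 and 21 CPM in round spermatid cluster 6 and 59.5 and 55.6 CPM in elongating cluster 9, before 24.8 and 25.2 CPM in cluster 0. Rab8b was lower in the germ line, at 27.9 and 27.7 CPM in late spermatocytes. Both paralogues were highest in macrophage-like cells, Rab8a at 77.1 and 87.9 CPM and Rab8b at 67.8 and 61.6 CPM. Rab10, which serves exocytosis, was at 210.0 and 209 CPM in early spermatocytes and 13.9 and 10.1 CPM in elongating spermatids. The antisense Rab10os overlaps Rab10, was at 45.9 and 48.1 CPM in elongating spermatids, and the strand setting of the counting is not given in the sources used here, so counts of the 2 cannot be told apart if strand was ignored.

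Rab23, a regulator of Hedgehog signals at the cilium, peaked in late spermatocytes at 39.6 and 34.7 CPM. Rab34, which acts early in cilium formation, was at 41.5 and 33.8 CPM in spermatogonia, 0.581 and 0.593 CPM in late spermatocytes and 0.505 and 0.313 CPM in elongating spermatids. Its highest level lay in stroma-like cells at 134 and 128 CPM. Rab27a, a Rab of secretory and lysosome-related organelles, was highest in late spermatocytes at 26 and 21.9 CPM. Its paralogue Rab27b did not reach the minimum in any class, but held 32.9% and 26.6% of the pair's counts in round spermatids against 1.86% and 2.63% in late spermatocytes. In round spermatid cluster 22, chosen after its values were seen, Rab27b was at 20.4 and 13.4 CPM. Rab42 was at 3.11, 1.58, 31.7, 20.4 and 3.79 CPM (WT) and 1.51, 1.21, 28.8, 18 and 3.46 CPM (knockout), highest in late spermatocytes and round spermatids. Rab40c, which joins a ubiquitin ligase through its SOCS box, was highest in early spermatocytes at 50.7 and 57.3 CPM, with 4.77 and 3.99 CPM in elongating spermatids.

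In somatic classes the leading Rabs were partly the same and partly of 1 type. Rab2a, Rab11a and Rab14 led in Leydig-like cells at 321 and 293 CPM, 275 and 219 CPM and 238 and 247 CPM. Rab2a and Rab11a led in stroma-like cells of both libraries, followed in WT by Rab6a at 169.8 and 125 CPM and in the knockout library by Rab14 at 168 and 146 CPM. In macrophage-like cells Rab14 was highest in both libraries, at 209 and 143 CPM. Next in WT were Rab11a at 194 and 105 CPM and Rab10 at 140.3 and 110.2 CPM, and next in the knockout library were Rab7b at 123 and 125 CPM and Rab28 at 78.3 and 119 CPM. Macrophage-like cells also held spermatid RNA, and with the spermatid profile subtracted Rab28 was at 22.5 and 57.1 CPM there. Rab11a, Rab28 and Rab10 led in Sertoli-like cells of WT at 230.1 and 124 CPM, 128 and 171 CPM and 120.5 and 73.4 CPM, beside spermatid RNA in these cells, which is described with the comparison of the libraries.

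Further genes with a marked somatic class were chosen after their values were seen. Rab7b, which acts between late endosomes and the Golgi, was at 123 and 125 CPM in macrophage-like and 61.9 and 58.8 CPM in stroma-like cells, and at 0.0631 and 0.148 CPM in late spermatocytes. Rab32, of lysosome-related organelles, was at 22.2 and 22.3 CPM in macrophage-like cells and 1.90 and 0.692 CPM in Leydig-like cells. Rab13, of tight junctions, was highest in Leydig-like cells at 152 and 155 CPM, above 63.9 and 35.6 CPM in Sertoli-like cells. Rab3d, of regulated secretion, was at 47.1 and 50.9 CPM in Leydig-like and 52.9 and 42 CPM in stroma-like cells. Rab12 and Rab20 reached 20 CPM in somatic classes only, with 83 and 36.6 CPM and 28.5 and 14 CPM in Sertoli-like cells. In the knockout library Rab12 was highest in stroma-like cells, at 78 CPM.

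The 19 GTPase genes that stayed under the minimum in every class were Rab3a, Rab3b, Rab3c, Rab9b, Rab15, Rab17, Rab19, Rab25, Rab26, Rab27b, Rab29, Rab33a, Rab33b, Rab36, Rab37, Rab38, Rab39b, Rab40b and Rab44. Their highest class levels ran from 0.175 CPM for Rab44 to 19.6 CPM for Rab3b in WT. In the knockout library they ran from 0.0340 CPM for Rab44 to 22.9 CPM for Rab29. Rab3a, which takes part in acrosomal exocytosis, is among them. Rab26 overlaps the antisense Rab26os, so its counts are uncertain if strand was ignored.

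The comparison between the libraries asked whether Rab transcripts differed between the WT and the Nsun7 knockout library at the stages in which the flagellum is built. In late spermatocytes none of 19 measured Rab GTPase genes was higher in the knockout library by 1.5 times or more, against 3.42% of 6225 genes, and none was as much lower, against 0.289%. In round spermatids none of 13 was higher, against 0.0491% of 6104 genes, or lower, against 0.0655%. In elongating spermatids none of 4 was higher, against 0.0306% of 3266 genes, or lower, against 4.19%. A count of 0 is close to the background in each of these classes.

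The widest ratios in late spermatocytes, ranked with the prior, were small. Rab5c was at 48.5 CPM (WT) and 56.1 CPM (knockout), a knockout-to-WT ratio of 1.16 (interval 1.07 to 1.25), and Rab6a at 193 CPM (WT) and 163 CPM (knockout), a knockout-to-WT ratio of 0.848 (interval 0.811 to 0.887). Of the 19 genes, 15 were below 0 on the log2 scale, with a median of -0.09 against -0.03 over all genes. The 4 late spermatocyte clusters had unequal weights in the libraries, with 1041 and 160 cells in cluster 5 and 870 and 546 cells in cluster 17. With the clusters weighted alike the median was -0.03, with 10 of 19 genes below 0, and over all genes it was -0.01. At Leiden resolution 2, a finer clustering, it was -0.01, with 11 of 20 below 0, and -0.02 over all genes. Median depth was 12214 UMIs (unique molecular identifiers) per cell in WT and 4711.5 in the knockout library, and its part in these ratios was not tested. In round spermatids, Rab22a was highest, at 46.5 CPM (WT) and 55.2 CPM (knockout), a knockout-to-WT ratio of 1.19 (interval 1.08 to 1.31). Rab11a was lowest, at 165 CPM (WT) and 149.9 CPM (knockout), a knockout-to-WT ratio of 0.909 (interval 0.859 to 0.962). The median over the 13 genes was 0.03, against -0.01 over all genes, and at resolution 2 it was -0.07 over 17 genes, against -0.03 over all genes.

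The 4 Rab genes measured in elongating spermatids differed little between the libraries. Rab28 was at 199 CPM (WT) and 189 CPM (knockout), a knockout-to-WT ratio of 0.950 (interval 0.931 to 0.970). Rab22a was at 118 CPM (WT) and 123 CPM (knockout), a knockout-to-WT ratio of 1.04 (interval 1.02 to 1.07), Rab8a at 34.1 CPM (WT) and 33.5 CPM (knockout), a knockout-to-WT ratio of 0.984 (interval 0.937 to 1.03), and Rab5c at 60.7 CPM (WT) and 72.1 CPM (knockout), a knockout-to-WT ratio of 1.19 (interval 1.15 to 1.23). Their median log2 ratio was 0.02, against -0.05 over all genes. The cells behind these sums differ, since clusters 0, 7, 9 and 16 are shared, cluster 3 is mainly WT (1296 and 55 cells), and clusters 8, 23, 24 and 25 are mainly of the knockout library. With the 4 shared clusters weighted alike, Rab28 was at 180.6 and 176 CPM, Rab22a at 94.1 and 89.1 CPM, Rab5c at 50.3 and 52.8 CPM and Rab8a at 33.1 and 31.2 CPM. The median over the 5 genes then measured was -0.07, against -0.05 over all genes. With trimmed mean scaling the median was 0.32, against 0.26 over all genes.

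**Figure D4:**
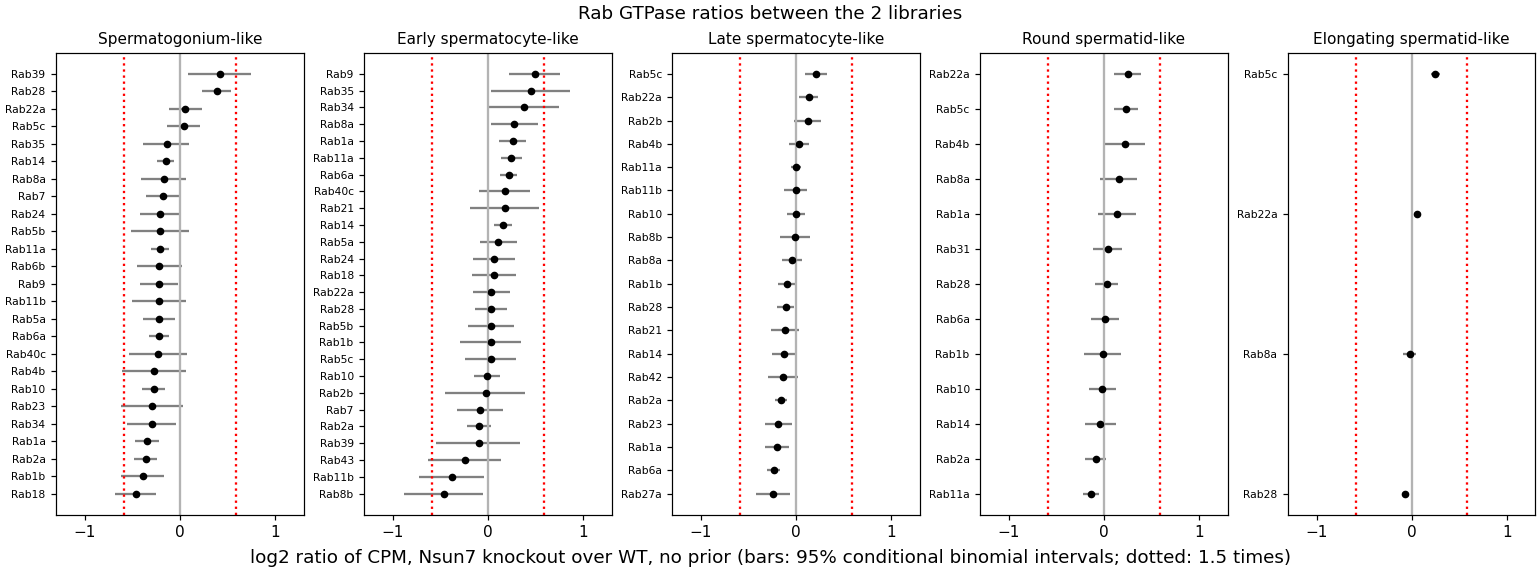
log2 ratio of CPM (knockout over WT, no prior) for each measured Rab GTPase gene in the 5 germ cell classes; points are single-library ratios, bars 95% conditional binomial intervals, and dotted red lines mark 1.5 times. All points of late spermatocytes, round spermatids and elongating spermatids lie between the dotted lines, from Rab27a at a ratio of 0.844 in late spermatocytes to Rab22a at 1.19 in round spermatids.

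Just under the minimum in elongating spermatids, and chosen after its values were seen, was Rab11a. It was at 26.5 CPM (WT) and 13.2 CPM (knockout), a knockout-to-WT ratio of 0.497 (interval 0.466 to 0.530), with a mean of 19.8 CPM. The estimate of free RNA for Rab11a was 11.02 and 3.93 CPM. With the 4 shared clusters weighted alike Rab11a was at 28.1 and 20.9 CPM, a log2 ratio of -0.36 against -0.79 without that weighting. Rab6b, at a mean of 19.5 CPM, was at 22 CPM (WT) and 17.1 CPM (knockout), a knockout-to-WT ratio of 0.778 (interval 0.730 to 0.829). Rab6a at 12.7 and 6.29 CPM and Rab2a at 11.9 and 5.64 CPM were lower still.

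In earlier germ cells no Rab GTPase gene was 1.5 times apart either. In spermatogonia 0 of 25 were higher, against 7.46% of 7551 genes, and 0 lower, against 4.49%. The median log2 ratio was -0.19, with 21 of 25 below 0, and the median over all genes was also -0.19. The widest were Rab18 at 64.9 CPM (WT) and 47.2 CPM (knockout), a knockout-to-WT ratio of 0.727 (interval 0.625 to 0.843) and Rab28 at 87.4 CPM (WT) and 114 CPM (knockout), a knockout-to-WT ratio of 1.31 (interval 1.18 to 1.45). The 12 elongating spermatid markers, all with counts, stood at 14.8% of their elongating level in WT spermatogonia and 29.3% in those of the knockout library, and with the spermatid profile subtracted the median was 0.03. In early spermatocytes 0 of 26 were higher, against 0.671% of 7449 genes, and 0 lower, against 3.92%, with a median of 0.05 against 0.01 over all genes. The widest there were Rab9 at 44.2 CPM (WT) and 62.1 CPM (knockout), a knockout-to-WT ratio of 1.41 (interval 1.16 to 1.70) and Rab8b at 29.5 CPM (WT) and 21.4 CPM (knockout), a knockout-to-WT ratio of 0.726 (interval 0.542 to 0.964).

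In Leydig-like cells 0 of 27 Rab genes were 1.5 times higher, against 0.392% of 6129 genes, and 0 lower, against 4.11%. Rab13 was at 152 CPM (WT) and 155 CPM (knockout), a knockout-to-WT ratio of 1.02 (interval 0.921 to 1.12) and Rab7 at 166 CPM (WT) and 168 CPM (knockout), a knockout-to-WT ratio of 1.02 (interval 0.925 to 1.12). In stroma-like cells 1 of 32 was higher, against 6.56% of 7274 genes, and 0 were lower, against 12.7%. That gene was Rab30, at 26.4 CPM (WT) and 46.8 CPM (knockout), a knockout-to-WT ratio of 1.77 (interval 1.10 to 2.84), from 38 and 39 counts.

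Sertoli-like cells gave the widest gap between the libraries, and these cells also differed in their content of spermatid RNA. In this class 17 of 24 Rab genes (70.8%) were lower by 1.5 times or more in the knockout library, against 49.7% of 5631 genes, and 0 were higher, against 5.79%. Rab12 was at 83 CPM (WT) and 36.6 CPM (knockout), a knockout-to-WT ratio of 0.441 (interval 0.377 to 0.514), and Rab14 at 104 CPM (WT) and 48.5 CPM (knockout), a knockout-to-WT ratio of 0.465 (interval 0.405 to 0.531). Rab28, which is abundant in elongating spermatids, was the other way, at 128 CPM (WT) and 171 CPM (knockout), a knockout-to-WT ratio of 1.34 (interval 1.22 to 1.46). The 13 Sertoli markers summed to 8416 and 4256 CPM, from 820 and 808 cells. The 12 spermatid markers all had counts and stood at 59.0% of their elongating level in WT and 74.9% in the knockout library. With the spermatid profile subtracted, 0 of the Rab genes were lower and 1 was higher, and with trimmed mean scaling 0 were lower and 3 higher. The share over all genes was not computed under these settings, so these counts are not set against a background. After that subtraction Rab12 was at 198 and 142 CPM, and Rab14 at 242 and 176 CPM. Rab28, the 1 higher gene, was at 25.8 and 118 CPM. At resolution 2 the class had 660 and 503 cells, in cluster 18 (545 and 484 cells) and in the deeper cluster 36 (115 and 19 cells). A further cluster, 13 (283 and 298 cells), scored highest for elongating spermatids, had more Sertoli markers among its leading genes, and was left unnamed. Sertoli markers then summed to 13404 and 7489 CPM and spermatid markers stood at 15.9% and 44.2% of their elongating level. In these cells 10 of the 24 Rab genes (41.7%) were lower, against 31.4% of 5631 genes, and 1 (Rab28) was higher, against 17.4%. The cells that bear the class name thus differ in makeup between the libraries, and the part of that makeup in the Rab ratios was not tested beyond these settings.

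In macrophage-like cells 7 of 29 Rab genes (24.1%) were lower, against 26.7% of 6877 genes, and 0 higher, against 7.82%. The 7 were Rab5a, Rab5b, Rab6a, Rab11a, Rab21, Rab31 and Rab35, from 249 and 186 cells. All 12 spermatid markers had counts and stood at 31.6% and 47.2% of their elongating level, and with the spermatid profile subtracted 2 Rab genes were lower and 3 higher. The share over all genes after subtraction was not computed. Rab7b and Rab32 were level, at 123 and 125 CPM and 22.2 and 22.3 CPM.

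Other genes of the Rab cycle were counted from 5 lists by the same 1.5 times rule. In round and elongating spermatids no measured gene of any list was apart: 0 of 4 and 0 of 3 for prenylation and GDI genes, 0 of 9 and 0 of 5 for exchange factors, 0 of 16 and 0 of 6 for TBC genes, 0 of 12 and 0 of 9 for effectors, and 0 of 5 and 0 of 2 for Rab-like genes. Over all genes 0.0491% were higher and 0.0655% lower in round spermatids, and 0.0306% higher and 4.19% lower in elongating spermatids. In late spermatocytes 1 of 20 exchange factors was higher, as was 1 of 13 effectors, against 3.42% of all genes, and 1 effector was lower, against 0.289%. None of 2 prenylation and GDI genes, 17 TBC genes and 5 Rab-like genes was apart there. The higher ones were Rab3il1, an exchange factor for Rab8, at 35.9 and 57.0 CPM, and Mical3, an effector of Rab8, at 32.1 and 57.9 CPM. The lower one was Golga2, a Golgi matrix protein, at 27.9 and 16.6 CPM. In elongating spermatids Rab3il1 was at 223 and 254 CPM and Mical3 at 602 and 654 CPM, both far above their late spermatocyte level in both libraries.

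Of these partners, Tbc1d20, Mical3, Rabac1 and Rab3il1 were more abundant in elongating spermatids than any Rab GTPase. Tbc1d20, a GTPase activating protein for Rab1 and Rab18, was at 787 and 688 CPM, while Rab1a, Rab1b and Rab18 were each near or under 10 CPM. Rabac1, a prenylated Rab acceptor, was at 364 and 425 CPM. Gdi2, the widely expressed GDI, was at 131 and 119 CPM there, below Rab28. Tbc1d21, a TBC protein of male germ cells, was at 236 and 216 CPM in round spermatids. Rabepk, an effector of Rab9, was at 263 and 279 CPM there, and Tbc1d15, which acts on Rab7, at 295 and 297 CPM in late spermatocytes. Among Rab-like genes, Ift22, a part of the intraflagellar transport complex, was at 216 and 215 CPM in late spermatocytes. Rabl2, which is needed for a working sperm tail, was at 72.3 and 76.4 CPM in elongating spermatids.

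The matches that are not GTPases followed other courses. Rab3ip was highest in late spermatocytes at 172 and 177 CPM and stayed at 110.4 and 119.8 CPM in elongating spermatids. Rab5if was at 105 and 115 CPM in Leydig-like cells, and Rab26os at 71.9 and 59.6 CPM in spermatogonia and 0.492 and 0.444 CPM in late spermatocytes. Rab26os (chromosome 17, 24528248 to 24528744, plus strand) lies within Rab26 on the opposite strand, so its counts and those of Rab26 cannot be told apart if strand was ignored.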

How the data were processed

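Per the labels' protocols, poly(A) RNA of dissociated adult testis was captured with a DNBelab C series droplet system after mincing, enzyme digestion, straining, a lysis buffer and washing. What the authors deposited are unnormalized counts, whole numbers for each gene in each barcode. PISA 0.12 wrote them, per the file headers, and GRCm38 was the genome, per the submitters' processing notes. For the aligner, the annotation, the strand setting and barcode filters the entry is "not given in the sources used here". No barcode had fewer than 1001 counts.

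Matrices were joined by symbol. Barcodes needed at least 200 genes and no more than 20% mitochondrial counts. Doublets (600 and 622, Scrublet in scanpy 1.11.5) were kept in the main values. Both libraries were clustered together without batch correction (10000 counts per cell, log transform, 3000 variable genes per library without Rab genes and Nsun7, 40 principal components, 20 neighbours, Leiden resolution 1, igraph 0.11.9). Clusters took the class of highest marker score with at least 3 detected markers. Unnamed and left out were a cluster mostly of doublets, one of low counts, and one with markers of endothelial and of peritubular myoid cells. Free RNA was estimated from Leydig genes.

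CPM were summed per class with exact Poisson intervals. Ratios carry conditional binomial intervals, shares carry Clopper-Pearson intervals, and calls used a prior of 5 CPM and a minimum mean of 20 CPM. Classes had at least 50 cells in each library. Named were Rab genes at least 4 times apart between WT germ cell classes, the 3 most abundant of each class, genes 1.5 times apart in the 3 late classes, paralogues with different highest classes, and per list the most abundant, highest and lowest in the late classes. Other names were chosen after their values were seen. The members and lists were chosen with earlier results of these data known. Coordinates are from GENCODE M21, and promoters from RefSeq. Python 3.11.15, numpy 2.4.6, scipy 1.17.1 and pandas 2.3.3 were used, and the counting step was tested on simulated data. Alternatives were a stricter filter, doublet removal, Leiden resolution 2, trimmed mean scaling, equal cluster mix, free RNA subtraction (also for paralogue shares, added after the values were seen) and minima of 10 and 50 CPM.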

Additional observations from a re-analysis of the deposited data

How the results depend on the processing

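No Rab gene was 1.5 times apart in late or round spermatids under the stricter filter, doublet removal, Leiden resolution 2, trimmed mean scaling, equal cluster mix, free RNA subtraction or the other minima. In elongating spermatids 1 was lower at a minimum of 10 CPM (Rab11a). The median log2 ratio there, 0.018, was 0.322 with trimmed mean scaling, which scales all genes of a class by the same factor. It was -0.0734 with the same cluster mix and -0.0935 at a minimum of 10 CPM. Over all genes the medians were -0.0496 in the main setting and 0.259, -0.0494 and -0.0735 in these 3. The last 2 settings use fewer cells or more genes, and the cause of their change was not tested. The trimmed mean of all log2 ratios was -0.33 in elongating spermatids, -0.70 in Sertoli-like and -0.26 in macrophage-like cells, -0.18 in spermatogonia, and -0.11 in Leydig-like and in stroma-like cells. Genes at least 4 times apart between germ cell classes numbered 15 at a minimum of 50 CPM, where fewer genes are counted, and 24 in the main setting. Genes with the same highest class in both libraries numbered 23 to 38 over these settings, against 33. Alternatives for 4 classes were added after seeing the data. In Sertoli-like cells the lower count went from 17 to 0 and the higher from 0 to 3 with trimmed mean scaling, and to 0 and 1 with the spermatid profile subtracted. In macrophage-like cells the lower count went from 7 to 4 and the higher from 0 to 4 with trimmed mean scaling, and to 2 and 3 with subtraction. In stroma-like cells subtraction made 1 gene lower. At resolution 2 the Sertoli-like counts were 10 lower and 1 higher, and 1 gene (Rab39) was higher in spermatogonia. Apart from Sertoli-like cells at resolution 2, the share of all genes 1.5 times apart was not computed under the alternatives. The other counts of higher and lower genes given here thus have no background beside them. In spermatogonia the median of -0.193 became 0.0306 with subtraction. No late-class member was called, so the alternative without a prior had no value to recompute. No paired analysis was possible because each genotype has 1 library. Macrophage-like and stroma-like cells had the fewest counts of the 9 classes, from 762528 to 1437067 per library, which limits their precision.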
